A study of Ovis aries with 18 samples.

Results

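Tight junctions and E-cadherin adhesion hold the cells of the blastocyst's outer layer, the trophectoderm, together as an epithelium. Tight junctions close the gap between neighbouring cells through membrane proteins (occludin, claudins and junctional adhesion molecules) that are bound on the inside by scaffold proteins, and this seal lets fluid collect in the blastocoel. Adherens junctions form below them from E-cadherin, whose tail is held by p120-catenin and, through beta-catenin, by alpha-catenin and the actin cytoskeleton. A list of 9 genes of these junctions was followed across 12 pools of sheep blastocysts. Of the 9, the 7 genes TJP1, OCLN, F11R, CGN, CDH1, CTNNA1 and CTNND1 were among the 20092 genes of the count table, and all 7 were among the 16488 genes with enough counts to be tested. The claudin genes CLDN4 and CLDN7 were not analysed here.

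Embryos came from Polypay rams that had received either a basal diet (control sires Ram410, Ram423 and Ram444) or that diet top-dressed with rumen-protected methionine (RPM) at 1.5 g, in which a coating keeps rumen microbes from degrading the amino acid (treatment sires Ram424, Ram498 and Ram511). Supplementation took place before puberty, and the rams were bred to superovulated Polypay ewes after it had ended. Each control ram sired 2 pools, whereas Ram424 sired 4 of the 6 treatment pools and Ram498 and Ram511 sired 1 each. Every pool held several embryos of 1 sire, flushed at stages from early to hatched blastocyst, and the dam of each pool is not in the labels, so sire and dam cannot be told apart. The p-values over pools take pools of a ram as independent, which they are not by design, and fits with the ram as the unit were run beside them. Libraries were made from RNA that had undergone whole transcriptome amplification, and total counts per pool ranged from 1017847 to 2398589. Expression is given as CPM, counts scaled to a common library total after TMM normalization, which corrects for differences in library composition. CPM is not corrected for gene length, so levels were compared between pools and not between genes.

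A pair of pools stood apart from the rest over all genes. Spearman correlations among the other 10 pools were 0.806 to 0.955, but those of Embryo444_2 (control) and Embryo511_1 (treatment) with these 10 were 0.526 to 0.626. Labelled as inner cell mass and trophectoderm, the 10 pools expressed the trophectoderm marker list at a summed 5448 to 14841 CPM, but Embryo444_2 had 377 CPM and Embryo511_1 had 290 CPM. In each of these pools KRT8, a keratin of simple epithelia, and POU5F1, an epiblast factor, were below their levels in all 10 others. The epiblast marker PRDM14 went the other way, with 43.9 CPM in Embryo444_2 and 83.3 CPM in Embryo511_1 (14.5 to 37.9 CPM in the 10 pools). Markers NANOG (9.91 and 7.93 CPM) and TDGF1 (19.1 and 27.8 CPM) were within the range of the 10. Pools Embryo424_1 and Embryo424_2 of Ram424 were the most alike (0.955). Their counts differed by more than sampling noise, with a chi-square of 3.28 per gene, against 8.32 to 26.4 for the other pairs of pools of a ram. Sampling noise here covers counting error only and the RNA was amplified, so this value cannot show that they are independent. They were kept as separate samples, as labelled. Results that rest on Embryo444_2 or Embryo511_1 are given with and without them.

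TJP1 encodes ZO-1, the scaffold that links tight junction membrane proteins to actin. In control pools it ranged from 81.4 CPM (Embryo444_2) through a median of 150.9 CPM to 193.4 CPM (Embryo410_1), and in treatment pools from 128.9 CPM (Embryo511_1) through a median of 210.2 CPM to 244.7 CPM (Embryo424_1). The groups overlapped, although all 4 pools of Ram424, at 199.1 to 244.7 CPM, lay above every control pool. OCLN, which encodes the membrane protein occludin, was more variable. It ranged from 60.2 CPM (Embryo444_2) to 140.7 CPM (Embryo423_1) in control pools, with a median of 108.0 CPM, and from 32.7 CPM (Embryo511_1) to 493.7 CPM (Embryo424_2) in treatment pools, with a median of 128.3 CPM. The treatment pools thus enclosed the control pools on both sides. Pools Embryo424_1 and Embryo424_2, the most similar libraries of the series, had 220.8 and 493.7 CPM of OCLN (462 and 872 counts).

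F11R encodes junctional adhesion molecule A, an immunoglobulin-type protein of the tight junction. A single library set it apart from the other members. Pool Embryo511_1 had 959.7 CPM (968 counts, exact Poisson 95% interval 908 to 1031, counting error only), whereas the other 5 treatment pools had 48.0 to 179.5 CPM and the control pools had 55.7 to 133.6 CPM, with a control median of 67.3 CPM. The treatment pools overlapped the control pools both with and without Embryo511_1. CGN encodes cingulin, which binds ZO-1 on the cytoplasmic side. Its range was 101.2 CPM (Embryo444_2) to 271.4 CPM (Embryo423_2) in control pools, median 232.9 CPM, and 133.8 CPM (Embryo511_1) to 350.4 CPM (Embryo424_2) in treatment pools, median 290.1 CPM.

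CDH1 encodes E-cadherin, the adhesion molecule of adherens junctions. Control pools ranged from 71.5 CPM (Embryo444_2) to 317.1 CPM (Embryo423_1) with a median of 226.5 CPM, and treatment pools from 94.2 CPM (Embryo511_1) to 489.7 CPM (Embryo424_2) with a median of 227.9 CPM. The medians were close, and the 2 highest pools, Embryo424_1 at 454.5 CPM and Embryo424_2 at 489.7 CPM, came from the same ram, whose other pools had 195.5 and 257.1 CPM. CTNND1, which encodes p120-catenin and keeps E-cadherin at the membrane, was the steadiest member, with 121.1 to 194.3 CPM in control pools and 137.9 to 234.7 CPM in treatment pools. CTNNA1, which encodes alpha-catenin, had 53.4 to 82.3 CPM in control pools and 24.8 to 79.3 CPM in treatment pools, its lowest pools being Embryo511_1 (25 counts, exact Poisson 95% interval 16.2 to 36.9) and Embryo424_3 (36.7 CPM). The gene LRRTM2 lies inside CTNNA1 in the RefSeq annotation of ARS-UI_Ramb_v3.0, and since no source used here states whether counting used strand, reads of this pair may not be fully told apart.

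**Figure D1:**
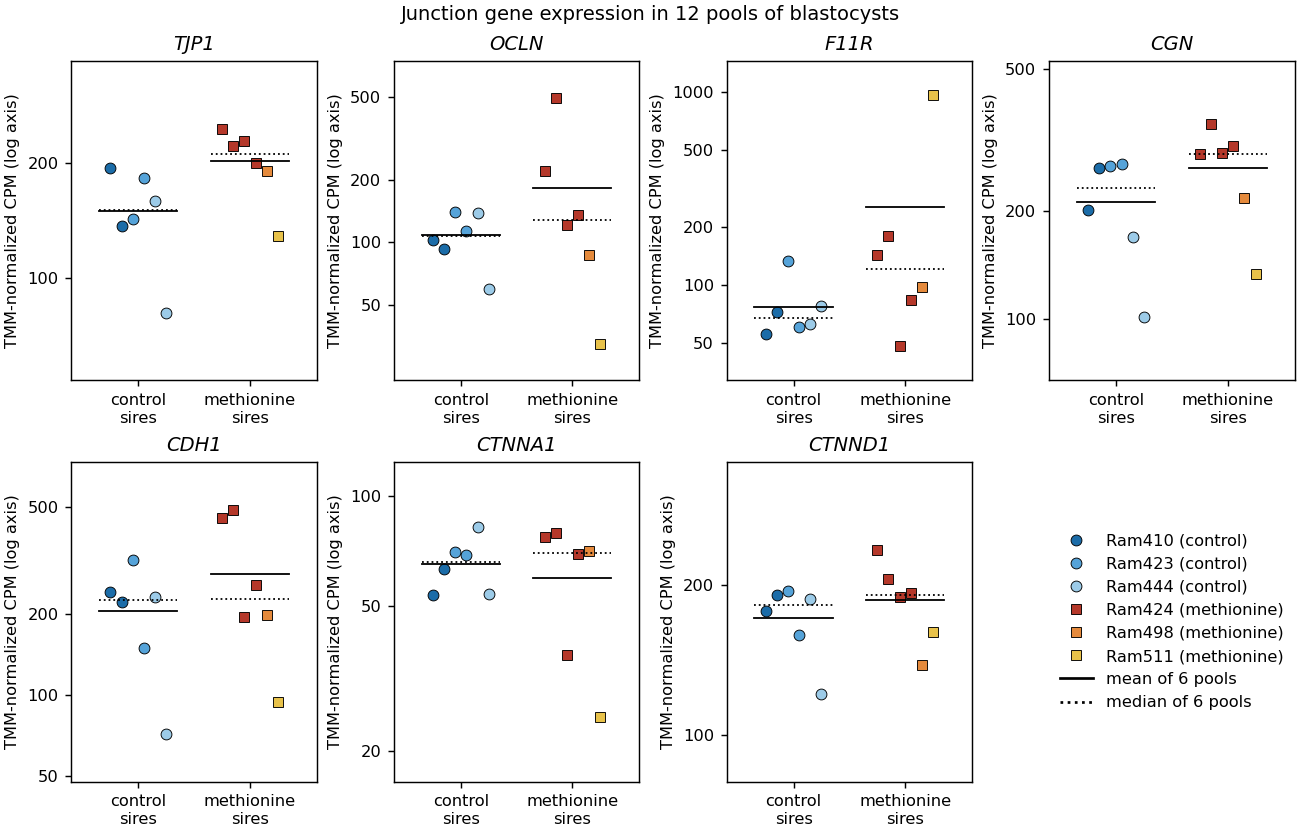
TMM-normalized CPM (log axis) of the 7 junction genes in 6 pools of embryos from control sires (circles) and 6 from methionine-treated sires (squares), coloured by ram, with the mean (solid line) and median (dotted line) of each group. The diets overlap in every panel, Embryo511_1 (yellow) is lowest for OCLN and CTNNA1 but reaches 959.7 CPM for F11R, and Embryo444_2 is lowest for TJP1, CGN, CDH1 and CTNND1.

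To ask whether the sire diet was followed by a difference in junction gene expression, diets were compared by the quasi-likelihood test of edgeR over all 16488 genes, with p-values adjusted over all of them (FDR). None of the 7 members passed an FDR of 0.05, and neither did any other gene (0 of 16488, 0%). At an unadjusted p under 0.05 there was 1 member, F11R, against 1306 genes (7.92%) of the whole table; it was higher in treatment pools, as were 3.55% of all genes at that threshold. The log2 fold change, methionine minus control, was above 0 for 6 of the 7 members (50.5% of all genes), with a median of 0.44 over the members and 0.01 over all genes. No member had groups that did not overlap, which 0.352% of all genes had.

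The difference was largest for F11R, at 77.0 ± 28.9 CPM (SD, n = 6) in control pools and 251.8 ± 349.8 CPM (SD, n = 6) in treatment pools, a log2 fold change of 1.70 (standard error 0.60, 95% interval 0.44 to 2.97, FDR 0.585). An exact two-sided permutation test of its log2 CPM over 924 assignments of the pools gave p = 0.123, and over the 20 assignments of the rams it gave p = 0.1, the smallest possible. OCLN had 108.1 ± 30.3 and 181.8 ± 164.8 CPM (SD, n = 6), a log2 fold change of 0.75 with a standard error of 0.47 (FDR 0.706). This value rested on Embryo424_2, without which it was 0.14, and with the ram as the unit it was 0.21 (pools summed per ram) or 0.019 (ram as a random term). For CDH1 the values were 205.6 ± 84.7 and 281.6 ± 157.0 CPM (SD, n = 6), a log2 fold change of 0.46 with an interval of -0.43 to 1.34 (FDR 0.797), and it was 0.22 without Embryo424_2, 0.27 without Embryo424_1, 0.28 without Embryo444_2 and 0.12 or 0.045 with the ram as the unit. TJP1, at 149.3 ± 39.8 and 201.9 ± 40.8 CPM (SD, n = 6), had a log2 fold change of 0.44 with an interval of -0.13 to 1.004 (FDR 0.703) and an exact permutation p of 0.0649 over pools and 0.4 over rams. With the ram as the unit its log2 fold change was 0.31 or 0.34. The intervals of CGN (-0.36 to 0.99), CTNND1 (-0.39 to 0.63) and CTNNA1 (-0.71 to 0.47) included 0 as well. For the catenins, differences of 1 or more on the log2 scale lay outside these intervals, whereas for CDH1, OCLN and F11R they did not. Since these intervals take pools of a ram as independent, they cannot exclude such differences. With pools summed per ram, the log2 fold change was -0.22 (standard error 0.41) for CTNNA1 and 0.011 (standard error 0.37) for CTNND1.

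Without Embryo444_2 and Embryo511_1, a fit chosen after the values were seen, no member passed the FDR threshold either (1 of 16161 genes did, 0.00619%). This left 4 pools of Ram424 and 1 of Ram498 on the treatment side, taken as independent. No comparison of diets with the ram as the unit was run on these pools. The log2 fold change of F11R dropped to 0.51 (standard error 0.32, interval -0.17 to 1.19). OCLN had 0.83 (interval 0.05 to 1.61, unadjusted p of 0.0387 and FDR 0.395 by edgeR) and TJP1 had 0.40 (interval 0.00258 to 0.80, unadjusted p of 0.0487 and FDR 0.416 by edgeR), so that 2 of the 7 members had an unadjusted p under 0.05, beside 11.9% of all genes. The log2 fold change was above 0 for 6 of the 7 members (47% of all genes), and the diets were free of overlap for 0 of 7 members, against 1.78% of all genes. For 4 members the direction rested on Ram424: without its 4 pools the log2 fold change was -0.83 for OCLN, -0.48 for CDH1, -0.26 for CGN and -0.20 for CTNND1, with 2 treatment pools left, of which 1 was Embryo511_1. TJP1 (0.10), F11R (2.78) and CTNNA1 (-0.43) kept their direction.

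**Figure D2:**
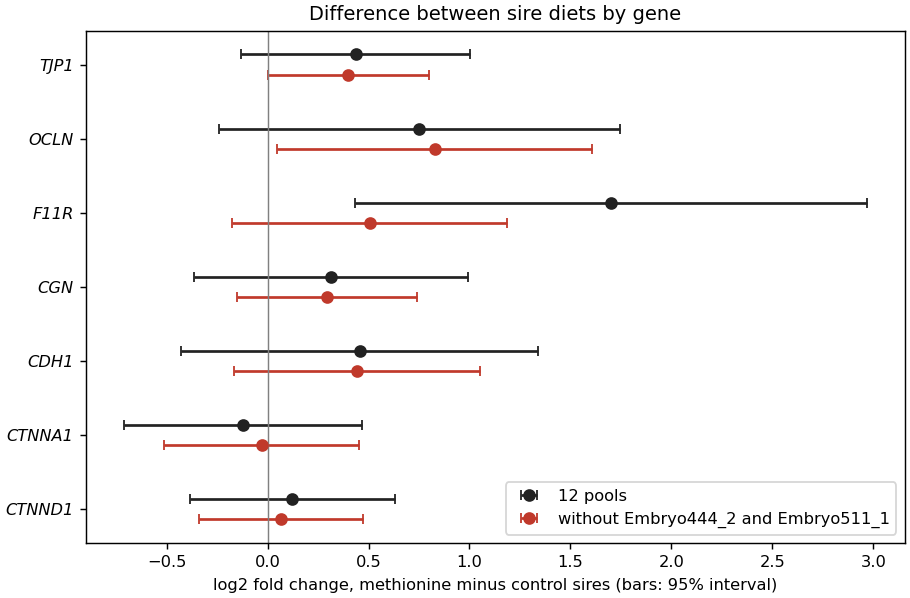
Log2 fold change between sire diets (x axis, methionine minus control) of each junction gene with its 95% interval from edgeR, for all 12 pools (black) and without Embryo444_2 and Embryo511_1 (red). The estimate of F11R goes from 1.70 to 0.51 when both pools are left out, and those of the other genes stay close to each other.

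Since pools of a ram share their sire, rams of the same diet were also compared, by a test of edgeR for any difference between rams within diets. By this test 654 genes (3.97%) passed an FDR of 0.05, and among the members 1 did, F11R (FDR 0.0292). OCLN had an unadjusted p of 0.0327 with an FDR of 0.175 by edgeR, so that 2 of the 7 members had an unadjusted p under 0.05, as did 23.7% of all genes, and the other 5 members had FDR values of 0.236 (CGN) to 0.769 (CTNND1). The call of F11R rested on Embryo511_1, the only pool of Ram511: without it its FDR was 0.879, and no member and only 2 genes in all passed. The FDR of F11R was also above 0.05 without Embryo410_1 (0.0576), Embryo410_2 (0.0530), Embryo424_1 (0.0679) or Embryo424_4 (0.0747). Without Embryo444_1, which left Embryo444_2 as the only pool of Ram444, F11R (FDR 0.00429), CGN (0.0190), CDH1 (0.0459) and OCLN (0.0476) passed, together with 3776 genes in all. Without both Embryo444_2 and Embryo511_1 no member and 23 genes passed.

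Pools of the same ram differed too. CDH1 differed 1.09-fold between the pools of Ram410, 2.12-fold between those of Ram423, 3.23-fold between those of Ram444 and up to 2.505-fold among those of Ram424. For OCLN the largest difference within a ram was 4.07-fold (Ram424) and the smallest 1.11-fold (Ram410). CGN was nearly the same in both pools of Ram423, at 268.6 and 271.4 CPM, and 288.7 to 350.4 CPM in those of Ram424. The variation left after diet, given as edgeR's biological coefficient of variation, was 68.6% for F11R, 56.4% for OCLN, 50.6% for CDH1, 39.8% for CGN, 34.7% for CTNNA1, 34.3% for TJP1 and 31.3% for CTNND1, against a median of 40.8% over all genes. The values of F11R and OCLN include the single high pools Embryo511_1 and Embryo424_2, and were not estimated without them.

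The 2 pools that stood apart had low levels of most of the 7 members, while other genes of these junctions, given below, did not follow as a whole. In Embryo444_2, 5 of the 7 members (TJP1, OCLN, CGN, CDH1 and CTNND1) were below each of the other 10 pools, as were 24.6% of all genes. In Embryo511_1 it was also 5 of 7 (TJP1, OCLN, CGN, CDH1 and CTNNA1), beside 26.6% of all genes. For 4 members (TJP1, OCLN, CGN and CDH1) these were the 2 lowest of the 12 pools, as for 12.9% of all genes. E-cadherin mRNA was 3.31-fold below the median of the 10 pools in Embryo444_2 and 2.51-fold below it in Embryo511_1, and occludin mRNA was 2.13-fold and 3.92-fold below. CTNND1, at 1.57-fold and 1.18-fold, was closest to its usual level among these.

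Of the 9 trophectoderm markers in the count table, 7 were below each of the other 10 pools in Embryo444_2 and 8 in Embryo511_1. KRT8 was 54.9-fold below the median of the 10 pools in Embryo444_2 and 149-fold below in Embryo511_1, KRT18 109-fold and 44.6-fold, and the trophectoderm transcription factor TFAP2C 9.03-fold and 16.1-fold. The markers were not uniformly low: EOMES, at 96.3 CPM, was higher in Embryo444_2 than in any other pool (24.1 to 67.9 CPM in the 10 pools, 18.8 CPM in Embryo511_1), and ELF5, at 29.0 and 66.4 CPM, was within the range of the 10 pools (17.1 to 127.7 CPM). KRT8 and KRT18 made up 77.8% to 93.4% of the summed list in the 10 pools, and without them the sum was 246 CPM in Embryo444_2 and 213 CPM in Embryo511_1, against 793 to 1763 CPM. In bulk samples of this kind, fewer cells of a type and less RNA per cell cannot be told apart. Of the cell types that flushing could carry along, markers of oviduct and uterine epithelium summed to 268 CPM in Embryo444_2 and 148 CPM in Embryo511_1 (122 to 192 CPM in the 10 pools), and those of granulosa and cumulus cells to 132 and 94.2 CPM (21.4 to 109.8 CPM). Blood cell markers summed to 200 and 367 CPM (100.7 to 718 CPM), but CSF1R in Embryo410_2 made up 638.8 CPM of the highest sum. PTPRC had 121.1 CPM in Embryo444_2 and 253.8 CPM in Embryo511_1, against 40.2 to 76.5 CPM in the 10 pools. HBM was above the 10 in both at low levels, and S100A8 in Embryo511_1 only. CSF1R, CD74 and TYROBP were within the range of the 10 in both. Sperm and testis markers summed to 547 and 1393 CPM (131 to 234 CPM), but these sums rested on few genes. In Embryo444_2 SPATA18 made up 394.3 CPM. In Embryo511_1 TNP1, a transition protein of spermatid chromatin, made up 1008 CPM and ODF2 298.4 CPM (61.4 to 167.0 CPM in the 10 pools). TNP2, ODF1, AKAP4 and ACR were within the range of the 10 in both pools. The part of these cells and of the libraries in the levels of the junction genes was not tested.

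The level of F11R in Embryo511_1 went against this pattern. It was 12.3 times the median of the 10 pools and 5.35 times the next highest pool, whereas in Embryo444_2, at 77.9 CPM, it equalled that median. A level at least 5 times the next highest pool was found in Embryo511_1 for 114 genes (0.691% of those tested), and F11R was the only member among them; in any pool such a level was found for 1.15% of genes, and for no other member. The pseudogene LOC105605170 overlaps F11R in ARS-UI_Ramb_v3.0 and was not in the count table, so reads of this pair may not be fully told apart. Genes or pseudogenes absent from the count table also overlap TJP1, OCLN and CDH1 there. Near F11R, TSTD1 had 0 CPM in Embryo511_1 and in the 10 pools. USF1, also near F11R, had 24.8 CPM in Embryo511_1 and 21.2 to 126.4 CPM in the 10 pools. Near CDH1, which was low in Embryo511_1, CDH3 (P-cadherin) had 88.2 CPM there and 43.4 to 104.6 CPM in the 10 pools, while ZFP90 had 253.8 CPM (98.6 to 172.1 CPM) and HAS3, a hyaluronan synthase gene, had 91.2 CPM (14.7 to 39.1 CPM).

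**Figure D3:**
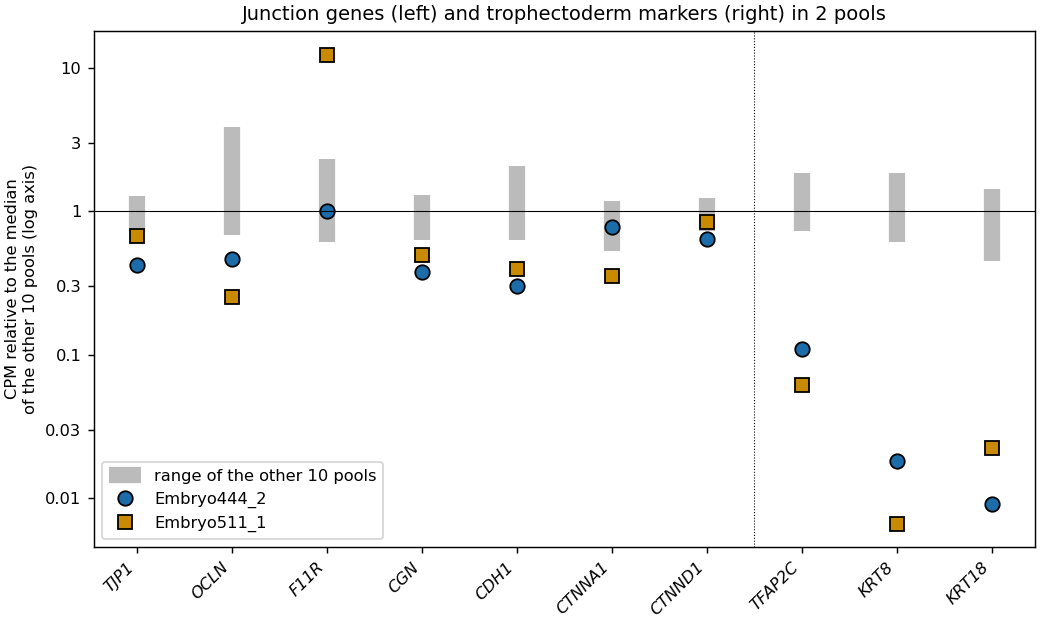
Level of each junction gene (left of the dotted line) and of the trophectoderm markers TFAP2C, KRT8 and KRT18 (right) in Embryo444_2 (circles) and Embryo511_1 (squares), as CPM relative to the median of the other 10 pools (log axis), with grey bars for the range of those 10. Most junction genes lie at 0.255 to 0.846 of the median, the keratins at 0.00669 to 0.0224, and F11R in Embryo511_1 at 12.3.

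Next it was asked whether junction genes varied together. Because Embryo444_2 and Embryo511_1 form no part of the main group of pools, correlations of log2 CPM were calculated over the other 10 pools for all 21 pairs of the 7 members. Pearson's r was above 0 for 19 of the 21 pairs, with a median of 0.42 and a range of -0.20 (TJP1 with CTNNA1) to 0.84 (CDH1 with F11R). After Benjamini-Hochberg adjustment over the 21 pairs, 2 passed in a permutation test of r, while none did in that of Spearman's rho (0 of 21). CDH1 and F11R had r of 0.84 (permutation p = 0.00193, adjusted 0.0235) and rho of 0.76 (permutation p = 0.0154, adjusted 0.0809). CDH1 and OCLN had r of 0.83 (permutation p = 0.00224, adjusted 0.0235) and rho of 0.76 (permutation p = 0.0150, adjusted 0.0809). For the partners E-cadherin and p120-catenin, CDH1 and CTNND1, r was 0.75 (permutation p = 0.0114, adjusted 0.0601) and rho was 0.82 (adjusted 0.0754).

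These relations leaned on Embryo424_1 and Embryo424_2, which had the highest level of 5 of the 7 members (15.4% of all genes were highest in 1 of these pools). Without them r was 0.59 for CDH1 with F11R, 0.43 for CDH1 with OCLN and 0.59 for CDH1 with CTNND1, so that each of these relations rests in part on pools of a single ram. For TJP1 r was 0.34 with CDH1 and 0.24 with CTNND1, and without its 2 farthest pools, Embryo410_2 and Embryo423_1, it was 0.59 and 0.57. With Embryo444_2 and Embryo511_1 kept, values that span separate groups of pools and are given for comparison only, r with CDH1 was 0.87 for OCLN, 0.84 for CTNND1 and 0.75 for TJP1, but -0.12 for F11R (rho 0.31), so the relation of CDH1 and F11R is one of the 10 pools. Among the 15725 genes outside the list with a mean of at least 10 CPM, 1.43% had a higher r with CDH1 over these 10 pools than F11R had, 1.67% higher than OCLN and 4.46% higher than CTNND1, but 26.0% higher than TJP1 and 21.3% higher than CTNNA1. Over all 12 pools the share for F11R was 53.2%.

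**Figure D4:**
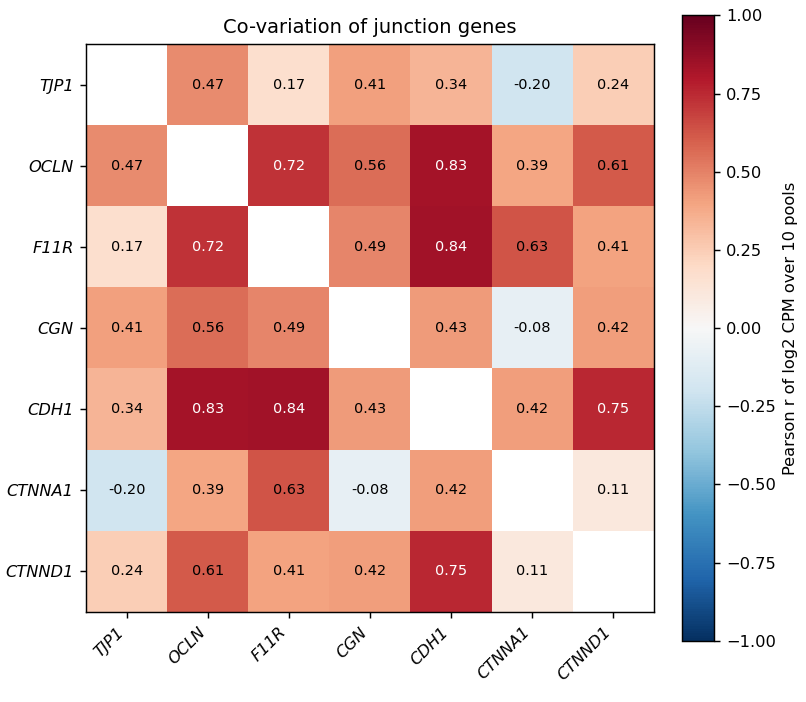
Pearson's r of log2 CPM for every pair of junction genes over 10 pools, without Embryo444_2 and Embryo511_1 (colour scale from -1 to 1, with the value in each cell). CDH1 with F11R (0.84) and CDH1 with OCLN (0.83) have the highest values, and TJP1 with CTNNA1 the lowest (-0.20).

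The relative amounts of partner mRNAs within a pool do not depend on normalization. The ratio of CDH1 to CTNND1 counts had a median of 1.28 and was 0.591 in Embryo444_2, 0.586 in Embryo511_1, 1.94 in Embryo424_1 and 2.39 in Embryo424_2, a 4.07-fold range over the 12 pools and 2.53-fold over the 10. CTNNA1 to CTNND1 ranged 3.31-fold and 2.63-fold. Among tight junction genes the ratio of CGN to TJP1 kept within 1.86-fold over all 12 pools, whereas OCLN to TJP1 ranged 8.79-fold (4.86-fold over the 10). These ratios are of counts not corrected for gene length, so only their spread is read here.

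**Figure D5:**
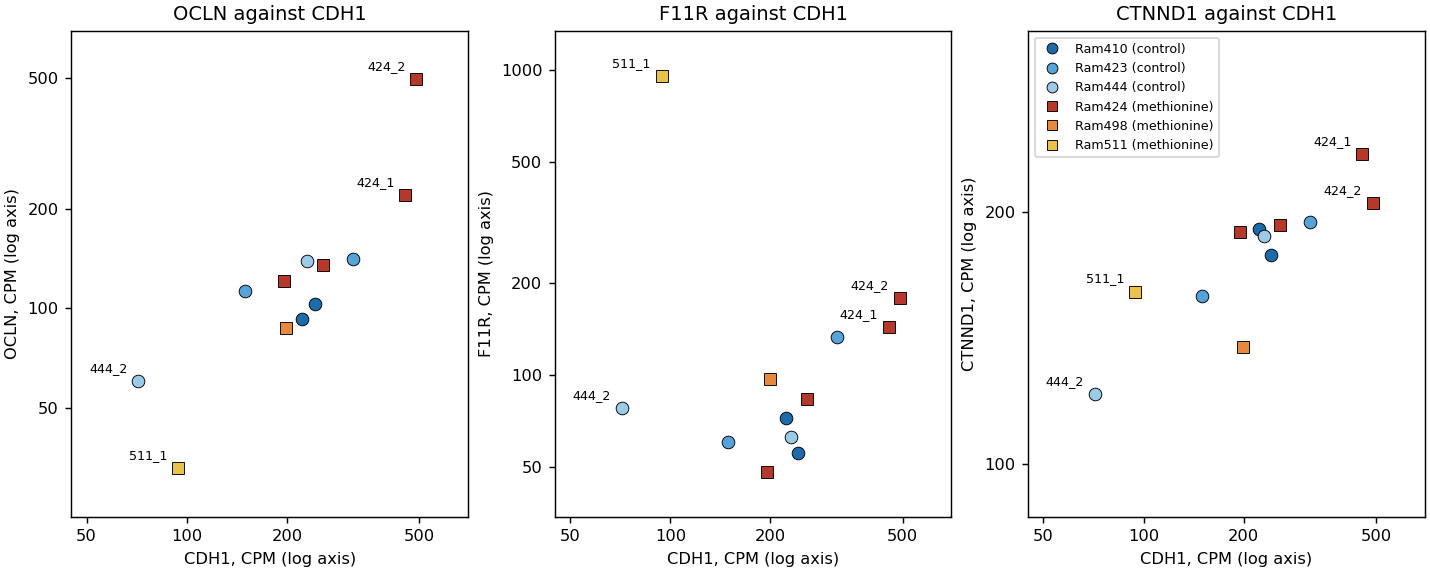
OCLN, F11R and CTNND1 against CDH1 in each of the 12 pools (CPM, log axes), with circles for control and squares for treatment pools coloured by ram and 4 pools named. Embryo424_1 and Embryo424_2 lie at the upper right of each panel, Embryo444_2 at low CDH1, and Embryo511_1 leaves the trend for F11R alone, at 959.7 CPM.

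The genes outside the list whose pattern over the 12 pools was most like that of CDH1 were MARCKSL1 (Pearson's r 0.97, Spearman's rho 0.92), KNSTRN (0.97 and 0.92), STAU1 (0.97 and 0.94), ANXA3 (0.97 and 0.93) and DDX6 (0.97 and 0.90), and over the 10 pools their r was 0.91 to 0.95. For TJP1 they were RRM2 (r 0.96, rho 0.95), SH3YL1 (0.96 and 0.91), CHTF18 (0.95 and 0.92), CHP1 (0.95 and 0.99) and MSX2 (0.95 and 0.98), with r of 0.88 to 0.96 over the 10 pools. They were picked as the highest of 15725 genes, and all points share the composition of the same 12 libraries.

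Other genes of the same junctions were read from lists that hold no member. Of 39 further tight junction genes, 36 were in the count table and 31 were tested. None passed an FDR of 0.05 between diets (smallest FDR 0.631), 0 had an unadjusted p under 0.05, 18 of 31 had a log2 fold change above 0 and the median was 0.09. TJP3, which encodes ZO-3, had 166 ± 68.0 CPM in control and 235 ± 95.01 CPM in treatment pools (SD, n = 6), CGNL1 (paracingulin) had 145 ± 39.7 and 180 ± 46.8 CPM (SD, n = 6), and the polarity gene PARD3 had 217 ± 52.2 and 206 ± 82.5 CPM (SD, n = 6). TJP3 was lowest in Embryo444_2 (52.4 CPM) and Embryo511_1 (55.5 CPM), whereas CGNL1 was highest in Embryo511_1 (270.6 CPM). JAM2 (123.9 CPM) and CLDN15 (61.6 CPM) were highest in Embryo444_2. The 36 genes summed to 1861 CPM in Embryo444_2 and 2208 CPM in Embryo511_1, against 1959 to 2788 CPM in the 10 pools. With the members CLDN4 and CLDN7 not analysed, CLDN6 was named after its values were seen: this claudin had 230.4 to 246.6 CPM in Embryo424_1 and Embryo424_2, 83.0 to 180.4 CPM in the other 8 of the 10 pools, and 20.5 and 31.7 CPM in Embryo444_2 and Embryo511_1 (log2 fold change between diets 0.86, standard error 0.43, FDR 0.657). MARVELD2 (tricellulin), a relative of OCLN that lies next to it in ARS-UI_Ramb_v3.0, had 116.6 CPM in Embryo424_2, the highest of the 10 pools for it as for OCLN. Both were low in Embryo410_2 (MARVELD2 44.6 CPM, OCLN 92.8 CPM) and in Embryo498_1 (MARVELD2 56.0 CPM, OCLN 87.3 CPM). They did not go together in every pool. MARVELD2 had 87.0 CPM in Embryo424_1, the pool with the next highest OCLN. In Embryo444_2, where OCLN was below each of the 10 pools, MARVELD2 had 114.7 CPM.

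Of 23 further adherens junction genes, 21 were in the table, and 20 were tested. Again none passed between diets (smallest FDR 0.663, with 0 at an unadjusted p under 0.05), 8 of 20 had a log2 fold change above 0 and the median was -0.13. AFDN (afadin, which joins nectins to actin) had 313 ± 131 and 356 ± 118 CPM (SD, n = 6) in control and treatment pools, SHROOM3 had 194 ± 108 and 170 ± 68.1 CPM (SD, n = 6), and VCL (vinculin) had 126 ± 13.5 and 139 ± 41.1 CPM (SD, n = 6). The 21 genes summed to 1390 CPM in Embryo444_2 and 1698 CPM in Embryo511_1, against 1676 to 2141 CPM in the 10 pools. Between rams within diets 3 of the 20 passed, namely PKP4 (FDR 0.00493), CDH11 (0.0315) and NECTIN2 (0.0496), against 3.97% of all genes, and none of the 31 tight junction genes did. PKP4, a relative of CTNND1, had 498.7 CPM in Embryo511_1 and 66.7 to 135.5 CPM in the other 11 pools, and CDH11, a cadherin of mesenchymal cells, had 183.4 CPM in Embryo511_1 and 29.6 to 89.9 CPM elsewhere. Without Embryo511_1 none of the 20 passed, and the FDR was 0.542 for PKP4, 0.626 for CDH11 and 0.415 for NECTIN2. CDH11 and NECTIN2 also missed the threshold without Embryo410_1, Embryo410_2, Embryo424_1, Embryo424_2 or Embryo424_4 (FDR 0.0527 to 0.117), and NECTIN2 without Embryo423_1 (0.0561) or Embryo424_3 (0.0844).

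Regulators of epithelial genes did not differ detectably between diets. Of 8 tested transcription and splicing regulators 0 passed (smallest FDR 0.714, with 0 at an unadjusted p under 0.05), among them TFAP2C (378 ± 179 and 481 ± 281 CPM), GRHL1 (110 ± 31.2 and 97.97 ± 25.7 CPM) and ESRP1 (92.3 ± 31.5 and 107 ± 31.5 CPM; each SD, n = 6). The 9 regulators in the count table summed to 824 to 1669 CPM in the 10 pools, 441 CPM in Embryo444_2 and 363 CPM in Embryo511_1. TFAP2C, also a trophectoderm marker, had 326 to 830 CPM in the 10 pools, but 49.6 and 27.8 CPM in these 2. GRHL2, ESRP2, ELF3 and KLF5 were also below the 10 in both. ESRP1 was highest of all pools in Embryo444_2 (152.9 CPM) and lowest in Embryo511_1 (51.6 CPM). GRHL1, at 94.2 and 124.9 CPM, was within the range of the 10 (57.8 to 151.4 CPM). Of 7 tested mesenchymal genes and repressors of CDH1, 0 passed as well (smallest FDR 0.633, with 0 at an unadjusted p under 0.05). ZEB2, a repressor of CDH1, had 93.5 ± 23.2 CPM in control and 65.9 ± 16.3 CPM in treatment pools (SD, n = 6; log2 fold change -0.50, standard error 0.24), ZEB1 had 54.0 ± 28.2 and 47.6 ± 13.2 CPM, and FN1 (fibronectin) had 303 ± 92.0 and 344 ± 83.6 CPM (SD, n = 6). In Embryo444_2 ZEB1 (110.4 CPM, 32.3 to 69.3 CPM in the 10 pools), SNAI1 (48.1 CPM, 3.54 to 17.6 CPM) and SNAI3 were above the 10. TCF3 and FN1 were below the 10 there, and the list summed to 422 CPM (469 to 674 CPM). In Embryo511_1 ZEB1 and SNAI1 were within the range of the 10, and the list summed to 393 CPM. A link of these levels to CDH1 was not tested.

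Lists of embryonic cell types showed no gene past the threshold between diets either, with smallest FDR values of 0.585 for 9 trophectoderm, 0.732 for 4 epiblast and 0.663 for 7 hypoblast markers. Unadjusted p-values under 0.05 were found for 1 of these genes, DAB2, with 202.9 ± 81.1 CPM in control and 486.9 ± 234.5 CPM in treatment pools (SD, n = 6; log2 fold change 1.26, FDR 0.585). DAB2 had its highest levels in Embryo424_1 and Embryo424_2 (683.4 and 736.0 CPM), the pools in which CDH1 and OCLN were highest. Among the markers of other tissues none passed an FDR of 0.05 between diets, with smallest values of 0.584 for 6 oviduct and uterine, 0.719 for 4 blood, 0.875 for 4 granulosa and cumulus and 0.584 for 4 sperm and testis genes. The unadjusted p was under 0.05 for PAX8 and FOXJ1 of oviduct epithelium (log2 fold changes -0.93 and -1.09) and for TNP1 and SPATA18 of the testis (4.54 and -1.77), the last pair with its highest values in Embryo511_1 (1008 CPM) and Embryo444_2 (394.3 CPM), respectively.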

How the data were processed

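Gene expression was measured in 12 pools of blastocysts, grouped by the sire diet in their labels. The authors trimmed the reads with Trimmomatic, aligned them to Oar_rambouillet_v1.0 with STAR and deposited raw counts per gene and pool; the strand setting is not given in the sources used here. A gene was tested if over 3 pools held 15 counts or more of it. After TMM normalization, edgeR (version 4.0.16, in R 4.3.3) tested diets and rams two-sided by quasi-likelihood, at a Benjamini-Hochberg FDR under 0.05. Standard errors were taken as the fold change over the root of the F statistic. Log2 CPM had a prior count of 2. Correlations used 100000 permutations. Alternatives used DESeq2 1.42.0 and limma 3.58.1. Other steps used scipy 1.17.1, pandas 2.3.3, numpy 2.4.6 and, for plots, matplotlib 3.10.9, under Python 3.11.15. The scripts were tested on simulated counts. Depth was 1017847 to 2398589 counts per pool, and since no source used here names molecular identifiers for these amplified reads, counting intervals cover counting error only.

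The members, the gene lists (further tight and adherens junction genes, epithelial regulators, mesenchymal genes, embryonic cell types, and oviduct and uterus, blood, granulosa and cumulus, and sperm markers) and the tests were chosen with earlier results of these data known. Named genes were all members, list genes past the test or otherwise the 3 of highest mean CPM of each junction and regulator list, and the 5 genes most correlated with CDH1 and TJP1. CLDN6, MARVELD2, USF1, CDH3, PKP4, CDH11, NECTIN2, DAB2, PAX8, FOXJ1, SPATA18, ZFP90, HAS3, LRRTM2, EOMES, ELF5, KRT8, KRT18, POU5F1 and TNP1 were named after their values were seen. The same holds for PRDM14, NANOG, TDGF1, GRHL2, ESRP2, ELF3, KLF5, TSTD1 and LOC105605170. It also holds for PTPRC, CSF1R, CD74, TYROBP, HBM, S100A8, ODF2, TNP2, ODF1, AKAP4, ACR, CLDN15, JAM2, SNAI1, SNAI3 and TCF3. Sperm methylation was not used here, because its positions are on Oar_rambouillet_v1.0 and the gene table at hand is of ARS-UI_Ramb_v3.0, in which 17925 of the 20092 gene names were found.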

Additional observations from a re-analysis of the deposited data

Results flagged for a closer look

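Each member was examined within each diet for a pool far from the other 5 (Dixon's test at the 95% level), 14 groups in all, of which chance is expected to mark about 1 in 20. It marked 2 groups, both of F11R. Among treatment pools Embryo511_1 had 959.7 CPM, 5.35 times the next highest pool at 179.5 CPM. Among control pools Embryo423_1 had 133.6 CPM, and the next highest had 77.9 CPM. Embryo423_1 was also the control pool with the highest CDH1 and OCLN, at 317.1 and 140.7 CPM, whereas Embryo511_1 had the lowest OCLN of all pools.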

How the results depend on the processing

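Between diets, no member passed the FDR threshold under any alternative run (other normalization, tests and filters, each ram as a sum of its pools or as a random term, and each pool or ram left out), and the number of genes passing, 0 by the quasi-likelihood test of edgeR, was 5 by its likelihood-ratio test, 16 by DESeq2 and 1 without Embryo444_2 and Embryo511_1. Of the members, TJP1 and F11R kept a positive log2 fold change in all 26 alternatives (0.10 to 0.54 and 0.51 to 2.78), with a lowest FDR of 0.186 for F11R. Without Ram424 it was -0.83 for OCLN, -0.26 for CGN, -0.48 for CDH1 and -0.20 for CTNND1. For CTNNA1 it was 0.031 without Embryo511_1, the only pool of Ram511, and -0.22 to 0.031 with each pool left out in turn. Between rams, 654 genes and 1 member passed; the likelihood-ratio test gave 2834 and 2, leaving out each pool in turn 2 to 3776 and 0 to 4, and leaving out Embryo444_2 and Embryo511_1 23 and 0. Over all 12 pools 10 pairs of members passed in the correlation of log2 CPM, against 1 with log2(CPM + 1) without TMM factors and 2 without Embryo444_2 and Embryo511_1. The removal of Embryo444_2 and Embryo511_1 was chosen after the data were seen. No paired analysis was possible because the pool numbers only count the pools of a ram. The planned test of sperm methylation at the members and its alternatives were not run. Counts of 25 to 968 per member and pool limit the precision of single values.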
